A study of Haemaphysalis flava with 2 samples.

Results

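Cystatins are small proteins that lodge in the active-site cleft of papain-like cysteine proteases, such as cathepsins B, C and L, and block them reversibly. The intracellular kind, also called stefins, stays in the cytosol, while the secreted kind is made with a signal peptide and leaves the cell. In ticks, papain-like cathepsins take part in the digestion of hemoglobin inside gut cells, and secreted cystatins are known from both the gut and the saliva, where some act on proteases of the host.

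The cystatins of the midgut, where the blood meal is stored and broken down, were followed in the hard tick Haemaphysalis flava. Polyadenylated RNA of fully engorged (FE) ticks and of partially engorged (PE) ticks was sequenced, each state as 1 library. The labels give 60 dissected midguts, 30 of FE ticks and 30 of PE ticks; how many entered a library, and the age and sex of the ticks, they do not say. A unigene, the unit of the expression table, is an assembled transcript or a fragment of one. A unigene was taken as a cystatin when its Nr protein description, or its UniProt description where Nr gave none, held the word cystatin. This gave 10 of 65535 unigenes, 9 by Nr and 1 (Contig1370) by UniProt. The expression table stops at 65535 unigenes, a row limit of spreadsheets, while the annotation tables go further; the rule matched 0 annotated unigenes outside it.

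The FE library had 35944321 listed reads and the PE library 43831353. Midgut descriptions (longipain, legumain, peritrophin, hemelipoglycoprotein and proteins named for the midgut) matched 35 unigenes, all with reads in FE and 32 of them in PE. They summed to 6939.8 RPKM (reads scaled to kilobases of unigene and to library size) in FE and 19393 RPKM in PE. The longipain unigenes Contig8241 and Contig8240 and the legumain Contig4051 were those at 0 reads in PE. Descriptions named for other tissues that a dissected gut can carry also had reads. Whether these reads came from those tissues or from the gut itself was not tested. The muscle words also matched a non-muscle myosin heavy chain (Contig9358). Muscle descriptions (64 unigenes, reads for all in both libraries) summed to 3599 RPKM in FE and 4459.7 RPKM in PE. Salivary descriptions (106 unigenes, 104 with reads in FE and 100 in PE) summed to 6354 RPKM in FE and 20235 RPKM in PE. Ovary descriptions (2 unigenes) summed to 137 RPKM in FE and 48.9 RPKM in PE, and neural ones (22) to 163 RPKM in FE and 118 RPKM in PE. Hemocyte descriptions (11 unigenes) summed to 7.37 RPKM in FE and 2.13 RPKM in PE. The Malpighian tubule words matched 1 unigene, an inward rectifier K+ channel, with 8.35 RPKM in FE and 10.3 RPKM in PE. In such bulk samples a change in the share of a cell type and a change in RNA per cell cannot be told apart.

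The 10 cystatin unigenes fell into secreted and intracellular kinds by their descriptions. The secreted kind held 8, all described in Nr as cystatin precursors or secreted cystatin, and the intracellular kind held Contig1370 and Contig9356. Of the 10, 7 had the same best Nr protein, the cystatin-2 precursor of Ixodes scapularis, and the UniProt hits told them apart. Contig3042 matched Cystatin-2 of Haemaphysalis longicornis, a tick of the same genus, at 83.33% identity over 114 aligned residues. Contig45449 matched the Haemaphysalis longicornis protein of gene cyst-3 at 54.96% over 131. Contig499 matched a cystatin of Amblyomma triste at 80.26% over 76. Contig3911, Contig8700 and Contig12874 had hits named tick cistatins 1 in Amblyomma triste, at 60.14%, 60.61% and 69.12% identity. Contig7801 and Contig23723 matched proteins of Amblyomma maculatum that UniProt leaves uncharacterized. Contig1370 matched the intracellular cystatin of Haemaphysalis longicornis, gene cyst-1, at 94.59%, and Contig9356 matched one of Dermacentor variabilis at 73.24%.

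Several members covered only part of their hit. The unigenes were 341 to 818 nucleotides long, with a median of 484.5 nucleotides against 544 over all unigenes. Contig3911 spanned residues 2 to 139 of a 139-residue hit, and Contig45449 spanned residues 1 to 125 of 129. Contig499 covered only residues 1 to 76 of its 129-residue hit, with the alignment ending at base 3 of the unigene. Contig7801 covered residues 40 to 102 of a 141-residue hit and ended at the last base of the unigene, base 540. Contig1370 covered the first 37 of 98 residues, and Contig9356 covered residues 28 to 98 of another 98-residue hit. Contig8700 and Contig12874 shared 1 UniProt protein, and both covered its residues 72 to 139. Unigene sequences were not used here, so how reads were divided between similar members, and whether fragments belong to 1 transcript, was not tested.

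Every member carried the GO term for cysteine-type endopeptidase inhibitor activity, which 16 unigenes of the table had. The term intracellular was attached to Contig1370 and Contig9356 and to no other member.

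Setting FE beside PE addresses which midgut transcripts differ in level once a tick has finished feeding. The abundant cystatins changed places: Contig3042 led in PE and was lower in FE, whereas Contig499, 5 other secreted members and the intracellular Contig9356 were higher in FE. A unigene was called higher or lower when its log2 of (FE RPKM + 1)/(PE RPKM + 1) was at least 1 or at most -1 and the 95% counting interval of its ratio excluded 1. All 10 members reached the filter of 1 RPKM in a library. By this rule 7 were higher in FE, 1 was lower and 2 were neither, while over the 44982 unigenes of the filter 25.7% were higher and 11.1% were lower. FE RPKM exceeded PE RPKM in 8 of the 10 members (80%) and in 63.9% of those unigenes. The members' median log2 ratio was 1.79, beside 0.36 over all unigenes, and thus 1.43 above it. With 1 unigene kept per best protein, since 7 members share one, the median was 0.68 and 2 of 4 were higher. The unigene kept for those 7 was Contig3042, the only member called lower in FE, and these values depend on that choice. With 1 library per state no difference has a replicate check, and intervals cover counting error only. Scaling matters to the counts: with a TMM factor (0.39 on the log2 scale) 5 members were higher, 2 lower and 3 neither, beside 18.4% higher and 16.0% lower over all unigenes.

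Contig3042, the Cystatin-2 match, had 9582 reads in FE (565 RPKM) against 48486 in PE (2352 RPKM). It stood at rank 140 of the listed unigenes in FE and at rank 36 in PE. It was 4.16-fold higher in PE (95% counting interval 4.07 to 4.25), or 5.46-fold with a TMM factor. Contig499 had 16629 reads in FE (859 RPKM) against 7914 in PE (336 RPKM), at rank 81 of the listed unigenes in FE and rank 329 in PE. It was 2.56-fold higher in FE (2.49 to 2.63). With a TMM factor the ratio was 1.95 and Contig499 was no longer called.

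The secreted members with tick cistatins 1 hits were close to absent from the PE library. Contig3911 had 5293 reads in FE (156 RPKM) against 4 in PE (0.0970 RPKM), a ratio of 1609.6 (628 to 5909.5). Contig8700 had 4736 reads in FE (151 RPKM) against 18 in PE (0.471 RPKM), a ratio of 320 (202 to 540.5). By log2 ratio these unigenes ranked 7 and 8 of the 44982. Contig12874 had 146 reads (10.3 RPKM) in FE and 0 in PE. Set against a floor of 3 reads (0.175 RPKM) in PE, it was 59.2-fold higher in FE. The lower limit of its 95% counting interval was 47.5. Only the first 2 of these passed a 16-fold rule, which 0.371% of unigenes passed in the direction of FE. All 3 calls held with a TMM factor.

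**Figure D1:**
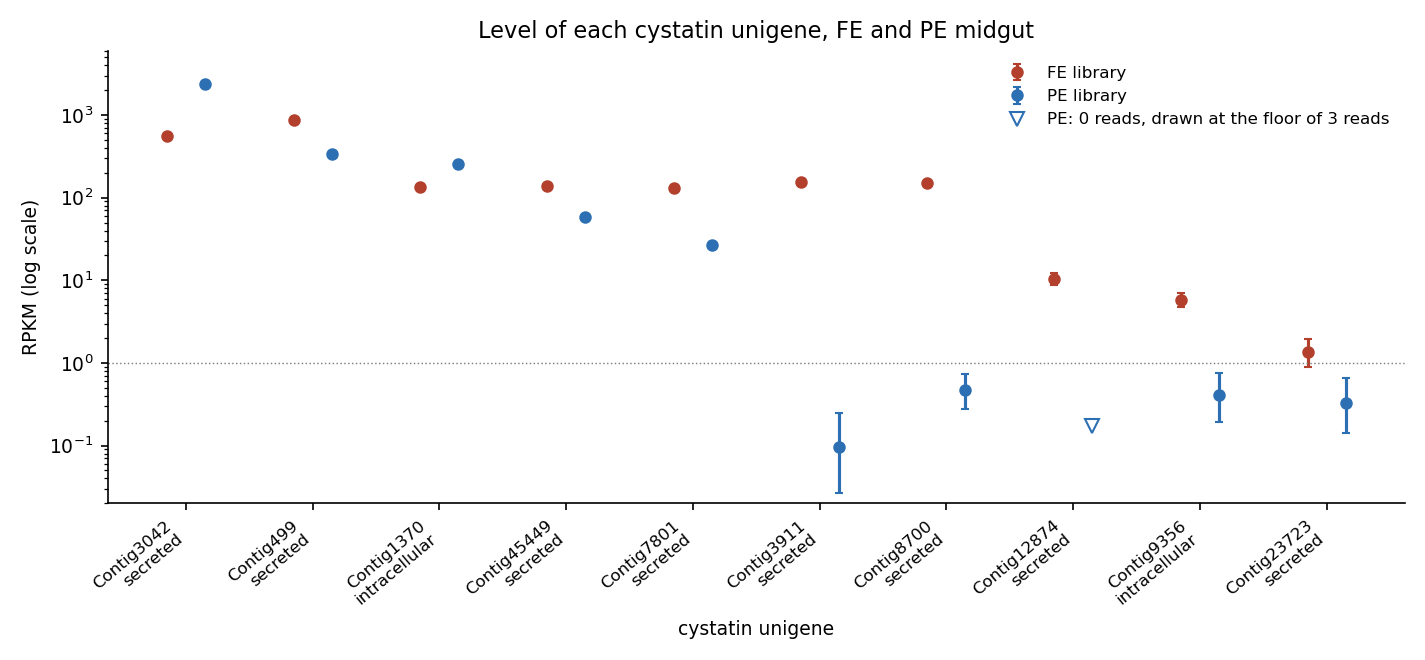
RPKM of each cystatin unigene on a log axis, FE (red) left of PE (blue), with 95% Poisson intervals of counting error, ordered by the mean of both libraries. Contig3042 and Contig1370 are higher in PE, and the other members are higher in FE; Contig3911, Contig8700, Contig12874, Contig9356 and Contig23723 lie below the dotted line of 1 RPKM in PE, with Contig12874 (0 reads) drawn at the floor of 3 reads.

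The other secreted members were all more abundant in FE. Contig45449, the match of the cyst-3 protein, had 4493 reads in FE (138 RPKM) against 2337 in PE (58.9 RPKM), 2.34-fold higher in FE (2.22 to 2.46). Its call was lost with a TMM factor, at 1.78-fold. Contig7801 had 2923 reads in FE (131 RPKM) against 737 in PE (27.1 RPKM), 4.82-fold higher in FE (4.45 to 5.24). Contig23723 was the scarcest member, with 27 reads in FE (1.35 RPKM) against 8 in PE (0.329 RPKM). Its ratio of 4.11 had a wide interval (1.81 to 10.5), and at a log2 ratio of 0.82 on the scale with 1 RPKM added it was called neither.

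The intracellular members differed in direction. Contig1370, the stefin-like match of cyst-1, had 2108 reads in FE (136 RPKM) against 4831 in PE (257 RPKM), 1.88-fold higher in PE (1.79 to 1.98). It was called neither with the authors' scaling and lower in FE with a TMM factor, at 2.47-fold. Contig9356 had 117 reads in FE (5.80 RPKM) against 10 in PE (0.407 RPKM), a ratio of 14.2 (7.47 to 30.5), and was called higher with either scaling.

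**Figure D2:**
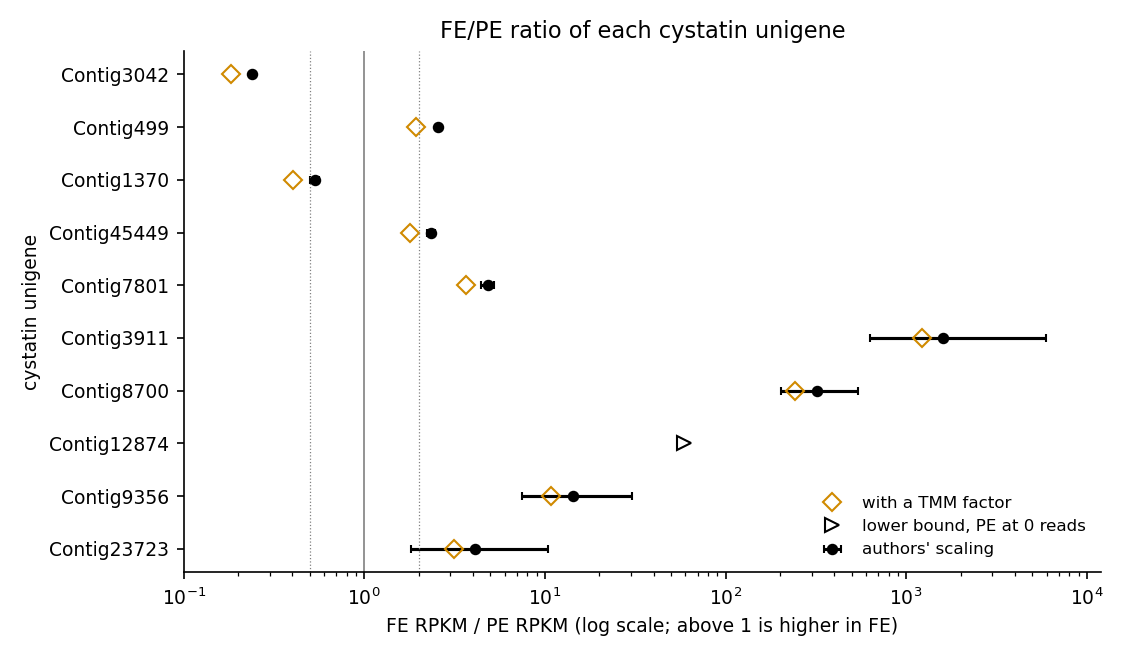
Ratio of FE to PE RPKM for each cystatin unigene on a log axis, with the 95% exact counting interval (black) and the ratio after a TMM factor (open diamonds); dotted lines mark 2-fold either way. The ratios run from 0.240 for Contig3042 to 1609.6 for Contig3911, and Contig12874, with 0 reads in PE, is drawn at 59.2, its ratio to the floor of 3 reads.

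The authors' deposited table gave a false discovery rate under 0.05 for 8 of the 10 members, against 7.98% of all its unigenes. That share is over 65535 unigenes, of which 44982 reached 1 RPKM in a library, as all 10 members did. The 2 shares are therefore not over unigenes of like abundance. With 1 library per state the rates carry no variation between replicates. In the authors' deposited table the rate was 1.84e-233 for Contig3042 and 3.68e-57 for Contig499. It was 6.35e-08 for Contig45449 and 1.78e-16 for Contig7801 in the authors' deposited table. Among tick cistatins 1 matches the authors' deposited table gave 1.66e-45 for Contig3911, 1.15e-43 for Contig8700 and 0.0368 for Contig12874. The rate was 1.35e-06 for Contig1370 in the authors' deposited table, although this unigene differed by less than 2-fold. The members outside the threshold in the authors' deposited table were Contig9356 (0.458) and Contig23723 (1).

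The order of the levels differed between the libraries. In FE the order was Contig499, Contig3042, Contig3911, Contig8700, Contig45449, Contig1370, Contig7801, Contig12874, Contig9356 and Contig23723. Counting intervals overlapped there between Contig3911 and Contig8700, and between neighbours from Contig45449 to Contig7801, so 5 members lay between 131 and 156 RPKM. In PE the order was Contig3042, Contig499, Contig1370, Contig45449 and Contig7801, with no overlap between neighbours. The remaining 5 members lay between 0 and 0.471 RPKM in PE, and each overlapped its neighbour.

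Summed over the 10 members, cystatin transcripts came to 2154 RPKM in FE and 3033 RPKM in PE. The ratio of the sums was 0.710 (0.702 to 0.719), or 0.541 with a TMM factor. Contig3042 decided its direction, since the other 9 members summed to 1589 RPKM in FE and 681 RPKM in PE, a ratio of 2.33 (2.29 to 2.38). Contig3042 made up 26.2% of the FE sum (25.8 to 26.7) and 77.6% of the PE sum (77.2 to 77.9). Contig499 made up 39.9% in FE (39.4 to 40.4) and 11.1% in PE (10.9 to 11.3). The 3 members with tick cistatins 1 hits held 14.7% in FE (14.4 to 15.0) and 0.0187% in PE (0.0109 to 0.0266). The secreted members summed to 2012 RPKM in FE and 2775 RPKM in PE, and the intracellular ones to 142 RPKM in FE and 257 RPKM in PE.

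**Figure D3:**
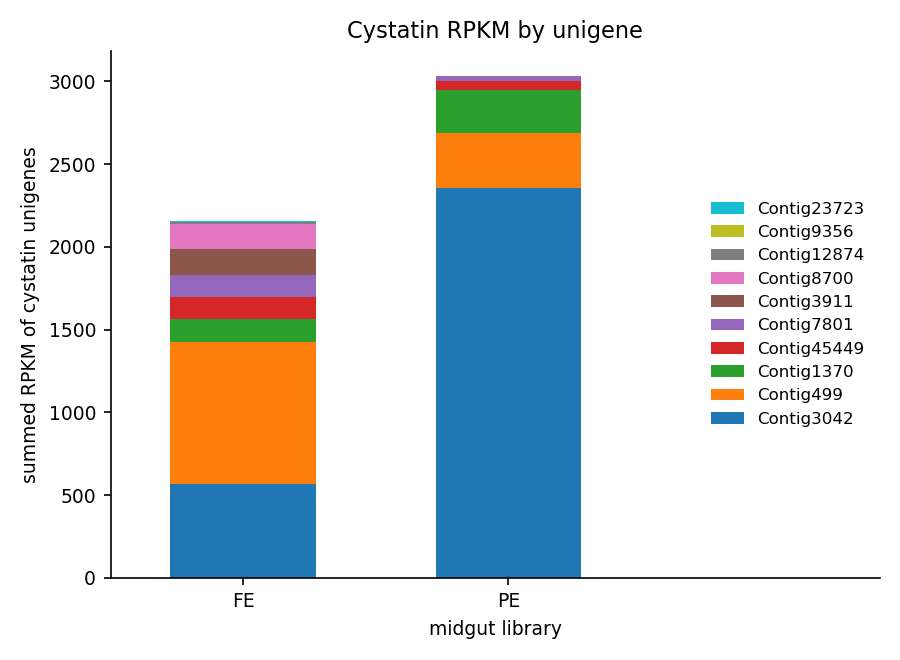
Summed RPKM of the 10 cystatin unigenes in the FE and PE libraries, stacked by unigene. The FE bar reaches 2154 RPKM and the PE bar 3033 RPKM, and Contig3042 fills 77.6% of the PE bar but 26.2% of the FE bar.

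Among all unigenes, those nearest to Contig3042 in log2(RPKM + 1) of both libraries were of the hemelipoglycoprotein and vitellogenin kind, heme and lipid carriers. They were Contig40383 (549 RPKM in FE, 1678 RPKM in PE), Contig1940 (612 RPKM in FE, 1675 in PE) and Contig758 (376 RPKM in FE, 2319 in PE), at distances of 0.49, 0.50 and 0.59. Nearest to Contig499 were Contig49 (978 RPKM in FE, 343 RPKM in PE), whose UniProt hit is a mucin or peritrophin, a putative aldehyde dehydrogenase (Contig1432, 676 RPKM in FE, 330.5 in PE) and Contig39317 (624 RPKM in FE, 307 in PE), at 0.19, 0.35 and 0.48. With 2 libraries this measure rests on 2 values per unigene.

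**Figure D4:**
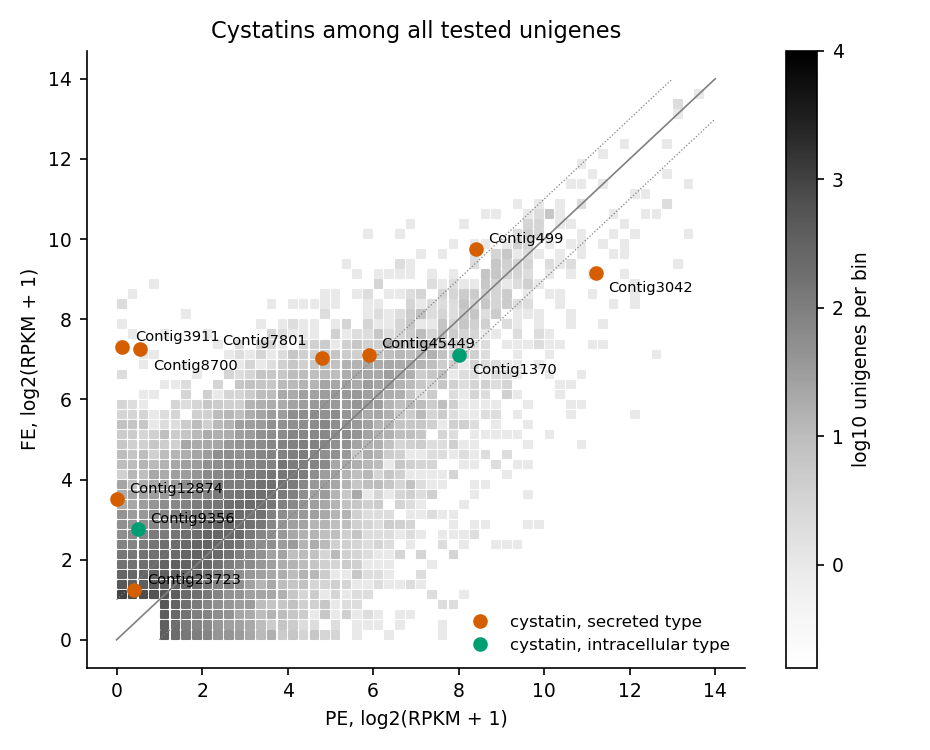
FE against PE level, both as log2(RPKM + 1), for the 44982 unigenes of at least 1 RPKM in a library (grey squares, darker where more unigenes fall) and the cystatins (orange secreted, green intracellular). The line marks equal levels and the dotted lines 2-fold; Contig3911 and Contig8700 lie at the left edge at 156 and 151 RPKM in FE, apart from the dense part of the cloud, and Contig3042 lies below the lower dotted line.

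Among the proteases that cystatins act on, more unigenes were lower in FE than higher. Papain-like cysteine proteases numbered 17 unigenes, of which 14 passed the filter; 2 were higher in FE, 6 lower and 6 neither, with a median log2 ratio of -0.72. Over all unigenes of the filter 25.7% were higher in FE and 11.1% lower. With a TMM factor 2 papain-like unigenes were higher and 7 lower, beside 18.4% and 16.0% over all unigenes. Cathepsin B (Contig5046) was the most abundant by the mean of both libraries, at 569 RPKM in FE and 829 RPKM in PE, called neither. Where a library reached 10 RPKM, a cysteine proteinase (Contig2606) had the lowest log2 ratio, with 174 RPKM in FE and 1082 RPKM in PE, 6.21-fold higher in PE (6.06 to 6.36). The longipain Contig8241, a midgut cysteine protease, had the highest, with 527 reads (42.3 RPKM) in FE and 0 in PE. The list leaves out calcium-dependent cysteine proteases, which are calpains. With them it held 26 unigenes, of which 23 passed the filter, with 4 higher and 11 lower.

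Legumains are asparaginyl endopeptidases that some cystatins of other animals also inhibit. They numbered 5, with 2 higher in FE, 1 lower and 2 neither, counts that a TMM factor did not change. Of all filtered unigenes, 25.7% were called higher and 11.1% were called lower. TMM scaling turned those shares into 18.4% and 16.0%. With only 5 legumains, their counts say little beside such shares. Contig3807, the most abundant by the mean of both libraries and the one with the lowest log2 ratio, had 73.4 RPKM in FE and 306 RPKM in PE. Contig4051, whose UniProt hit is a salivary legumain and which had the highest log2 ratio, had 1291 reads (19.9 RPKM) in FE and 0 in PE. Per RPKM of papain-like protease there were 1.19 RPKM of cystatin in FE and 0.893 in PE, and with secreted members alone 1.11 in FE and 0.817 in PE. The papain-like unigenes summed to 1818 RPKM in FE and 3398 RPKM in PE. Contig2606 alone held 174 RPKM of that sum in FE and 1082 RPKM in PE. The ratios of cystatin to protease have no interval. With Contig2606 left out of the protease sums, the FE and PE ratios would be about equal. Their difference therefore rests on that 1 unigene. Per RPKM of legumain there were 9.34 RPKM of secreted cystatin in FE and 7.01 in PE. The legumains summed to 215 RPKM in FE and 396 RPKM in PE, of which Contig3807 held 73.4 RPKM in FE and 306 RPKM in PE. With Contig3807 left out, the ratio to legumains would be larger in PE, so its direction rests on that unigene.

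Proteases that cystatins do not inhibit went both ways. Of 9 aspartic proteases past the filter 6 were higher in FE and none lower (median log2 ratio 1.11), while of 9 trypsins and chymotrypsins 2 were higher and 7 lower (-2.77). With a TMM factor these counts were 4 of 8 higher and 0 lower, and 2 higher and 7 lower. Among the 44982 filtered unigenes the share called higher was 25.7% and the share called lower 11.1%. After TMM scaling these shares became 18.4% and 16.0%. By the mean of both libraries the most abundant aspartic protease was Contig81, which had 353 RPKM in FE and 449 RPKM in PE, and the most abundant chymotrypsin was Contig291, which had 2026 RPKM in FE and 7573 RPKM in PE.

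Among other inhibitor families, the serpins, which block serine proteases, had 13 of 40 unigenes higher in FE and 18 lower (median log2 ratio -0.83). Kunitz inhibitors had 1 of 5 higher and 3 lower (-1.07). Alpha-2-macroglobulins, which trap proteases of several classes, had 16 of 27 higher and 1 lower (1.23). Over all unigenes of the filter 25.7% were higher in FE and 11.1% lower. With a TMM factor serpins had 12 of 39 higher and 21 lower, Kunitz inhibitors 1 and 3, and alpha-2-macroglobulins 13 and 1. The shares over all unigenes with that factor were 18.4% higher and 16.0% lower. The serpin Contig1645 had 455 RPKM in FE and 0.922 RPKM in PE, and the alpha-macroglobulin First_Contig13 had 61.7 RPKM in FE and 3.75 RPKM in PE. Contig8151, by mean RPKM the most abundant unigene matched by the alpha-2-macroglobulin words, is the receptor-associated protein and not an inhibitor, at 275 RPKM in FE and 66.1 RPKM in PE. The alpha-2-macroglobulin counts and median include Contig8151, which was called higher in FE with either scaling. Descriptions of Kazal, trypsin inhibitor-like or thyropin kind matched 0 unigenes.

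**Figure D5:**
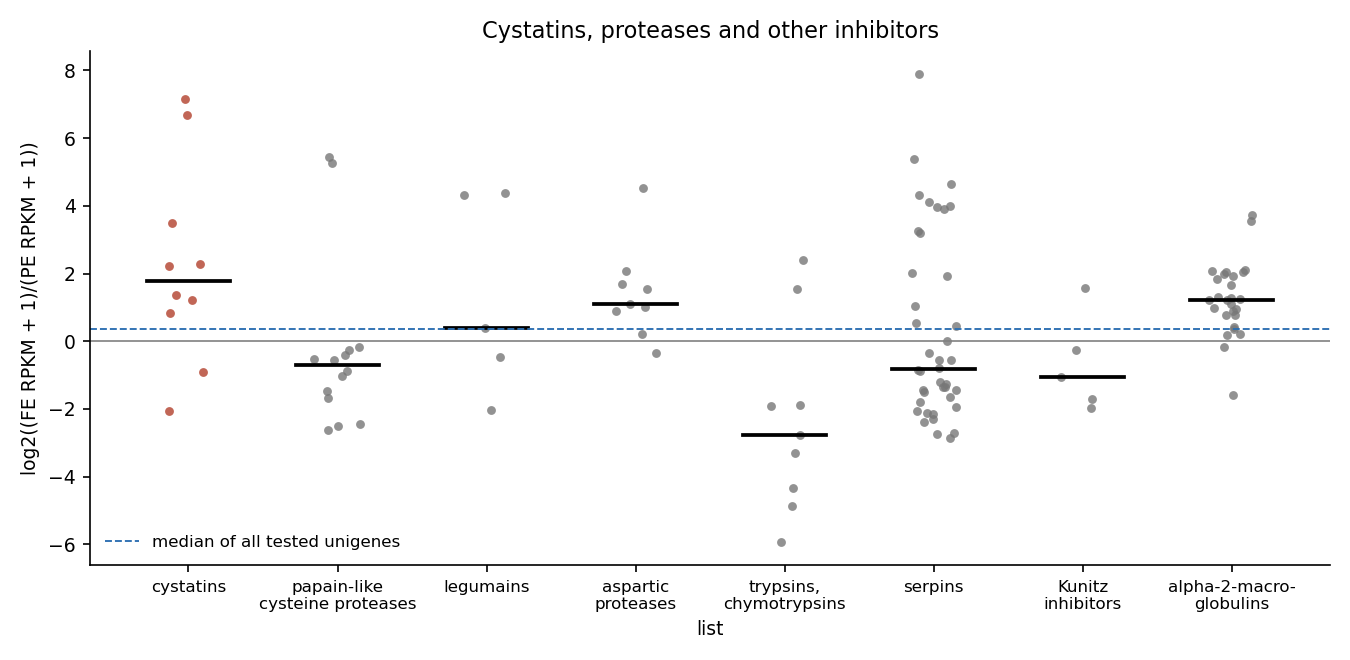
log2 of (FE RPKM + 1)/(PE RPKM + 1) for cystatins (red) and for unigenes of other protease and inhibitor lists past the filter (grey), with a black bar at each list's median and a dashed line at the median of all unigenes, 0.36. The cystatin median is 1.79 and that of papain-like cysteine proteases is -0.72, and members of each list spread widely about them.

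Unigenes with salivary descriptions were looked at beside these cystatins, since secreted cystatins also occur in tick saliva. Of 92 unigenes with salivary descriptions past the filter, 37 were higher in FE and 28 lower, beside 25.7% and 11.1% over all unigenes. With a TMM factor 31 of 93 were higher and 30 lower, beside 18.4% and 16.0%. Contig2521, the most abundant of the salivary descriptions by the mean of both libraries, had 688 RPKM in FE and 9207 RPKM in PE. Salivary glands defensin (Contig307) had 419.5 RPKM in FE and 0.198 RPKM in PE. Their part in the cystatin values was not tested.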

How the data were processed

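The authors deposited read counts per unigene, raw whole numbers per the file headers, and RPKM values beside them. The submitters' processing notes name CASAVA 1.8; which assembler, aligner and counter made the table is not stated there. Extraction used Trizol and library preparation a TruSeq guide, per the labels' protocols. The authors also deposited a ratio (fold) of PE over FE for each unigene, its p-value and its false discovery rate, without naming a test, and protein hits with their percent identity. Counts, RPKM and lengths implied totals of 41432770 reads in FE and 50397332 in PE, of which the listed reads were 86.8% in FE and 87.0% in PE; the table holds part of each library, and unigenes outside it were not analysed here.

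No test was run between single libraries. Ratios have exact 95% conditional binomial (Clopper-Pearson) intervals, levels exact Poisson ones, and sums and shares of sums normal approximations; PCR copies cannot be told apart, so these cover counting error only. Calls used a pseudocount of 1 RPKM, which understates ratios of low unigenes. The call rule was tried on simulated reads with counting error only, which says nothing about variation between ticks or libraries. The TMM factor (edgeR 4.0.16, R 4.3.3) was split evenly between the libraries. Other steps used Python 3.11.15 and scipy 1.17.1. All cystatins are named. From other lists the text draws on the most abundant unigene (by mean RPKM) and on the highest and lowest ratio where a library reached 10 RPKM, and for Contig3042 and Contig499 on the 3 nearest unigenes; Contig8240 was named after its values were seen. Members and lists were chosen with earlier results of these data known, and calpains were taken out of the cysteine proteases after their descriptions and values could be seen. Alternatives covered the pseudocount, the filter, the fold, the scaling and the choice of members.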

Additional observations from a re-analysis of the deposited data

How the results depend on the processing

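Of 43 values under alternatives, 32 stayed within the range set for the result, 10 moved and 1 reversed. For the median log2 ratio that range ran from -0.91 to 6.69, about as wide as the spread of the members. Every alternative median lay within it, so that part of the count says little about stability. The sum of cystatin RPKM in FE over PE was 0.541 with a TMM factor, 0.547 after centring on unigenes of at least 10 RPKM, and 2.33, the opposite direction, without the most abundant unigene. Contig3042 had an FE/PE ratio of 0.183 with a TMM factor and 0.185 after centring, and Contig499 one of 1.95 and 1.97. Members lower in FE numbered 2 with a TMM factor, after centring and with a 1.5-fold rule. Members higher in FE numbered 2 of 4 with 1 unigene per accession, which leaves out 6 of the 7 unigenes that share a protein; elsewhere they ran between 5 and 9. The median log2 ratio kept its sign, between 0.68 and 2.23. Adding cistatin and stefin spellings was chosen after seeing the data. No paired analysis was possible because each state has 1 library. In PE, members with 0 to 18 reads limit the precision of their ratios.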

Other observations

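The GO term for cysteine-type endopeptidase inhibitor activity reached 6 unigenes beyond the 10 cystatins, chosen here after their values were seen. A stefin-like unigene (Contig33311, UniProt hit a cytoplasmic cystatin of Ixodes scapularis) had 124 reads in FE (9.69 RPKM) against 42 in PE (2.70 RPKM), 3.59-fold higher in FE (95% counting interval 2.51 to 5.23). Contig27115, described in UniProt as tick cistatins 1 but matching it over only 38 residues in a unigene of 1893 nucleotides, had 10.9 RPKM in FE and 2.36 RPKM in PE, 4.62-fold higher in FE (3.99 to 5.38). Contig17801, whose UniProt hit is cathepsin F, had 47.2 RPKM in FE and 25.4 RPKM in PE and was called neither. The other 3 matched HECT-type ubiquitin ligases, which are not cystatins, and were called neither, at 6.39 to 8.21 RPKM in FE and 8.47 to 10.4 RPKM in PE.

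At a level chosen after the values were seen, 11 unigenes had at least 100 RPKM in FE and under 1 RPKM in PE, of 1064 with at least 100 RPKM in FE. Contig3911 and Contig8700 were 2 of them. The others with a description were the serpin Contig1645, the defensin Contig307, the immunoglobulin-binding proteins Contig2378 (341 RPKM in FE, 0.0666 RPKM in PE) and Contig3408 (192 RPKM in FE, 0.254 RPKM in PE), a secreted protein (Contig11579, 129.9 RPKM in FE, 0.742 RPKM in PE) and a cytochrome P450 (Contig3336, 114 RPKM in FE, 0.659 RPKM in PE); 3 had no description. The opposite pattern, at least 100 RPKM in PE and under 1 RPKM in FE, was found for 7 unigenes.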
